A study of Mus musculus with 8 samples.

Results

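The nuclear genes of the mitochondrial respiratory chain were described in sorted mouse pancreatic endocrine cells that had lost either both alleles or a single allele of Neurod1. Members were taken by gene symbol alone: Nduf followed by a, b, c, s or v and a digit for complex I, Sdha to Sdhd for complex II, symbols starting with Uqcr for complex III, Cox4 to Cox8 for complex IV, and Atp5 for complex V. The rule found 85 of the 23284 gene symbols in the count tables. Of these, 78 reached 1 CPM (counts scaled to a common library size) in at least 4 of the 8 libraries and are described here. They comprised 35 symbols of complex I, 4 of complex II, 8 of complex III, 14 of complex IV and 17 of complex V. The level was reached in all 8 libraries by 76 of them and in 7 libraries by the other 2, Cox6b2 and Cox7a1, so none entered through 1 genotype alone. The nearest symbols outside were Cox6a2, at 1 CPM in 2 libraries, and Ndufa4l2, in 1 library.

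RNA was sequenced from 8 libraries of pancreatic cells taken on embryonic day 17. All cells carried Neurog3Cre+ and RosaTomato+ on the strain background written C56BL/J, and were sorted as Tomato-labelled descendants of cells that had expressed Neurog3-Cre. The 4 KO libraries (replicates 8, 9, 17 and 24, numbered as in the sample titles) were Neurod1floxed/floxed, and the 4 Het libraries (replicates 6, 7, 13 and 19) were Neurod1floxed/wt. Every library thus had Cre, the reporter and at least 1 floxed Neurod1 allele, no library had an untouched pair of alleles, and the Cre driver acts in the precursors that give rise to every kind of islet cell. The comparison addresses what the loss of the remaining Neurod1 allele, which encodes a transcription factor of endocrine and neuronal cells, did to these transcripts. The labels do not say that libraries came from separate animals, so p-values measure the spread between these libraries, which may in part be technical.

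The respiratory chain passes electrons from NADH (complex I) and succinate (complex II) through ubiquinone, complex III and cytochrome c to oxygen at complex IV. Complexes I, III and IV pump protons across the inner mitochondrial membrane as the electrons pass. Complex V, the ATP synthase, uses the returning protons to make ATP. In beta cells the ATP formed from glucose closes potassium channels and so triggers insulin release, which ties this chain to hormone secretion. Most subunits are encoded in the nucleus and a small number in mitochondrial DNA. The mitochondrial DNA-encoded subunits are not analysed here.

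Library totals ran from 10.35 M to 16.1 M counts. Neurod1 stood at 2.54, 12.9, 22.1 and 21.5 CPM in KO replicates 8, 9, 17 and 24 and at 133, 138, 141 and 210 CPM in Het replicates 6, 7, 13 and 19 (log2 fold change -3.40, SE 0.52, adjusted p = 0.0165, edgeR quasi-likelihood test), so every KO library lay below every Het library. Its adjusted p rose to between 0.0523 and 0.0732 without KO replicate 9 or any 1 Het library, and to 0.0728 with a covariate for Y-linked genes. The 17 islet endocrine markers were all present, and their summed level ranged from 25384 to 49061 CPM in KO and from 72338 to 98565 CPM in Het. KO replicate 8 stood apart: its 11 mesenchyme markers summed to 9377 CPM, against 322 to 472 CPM in the other KO libraries and 228 to 1138 CPM in Het, and all 11 were highest there. Leukocyte markers summed to 493, 275, 20.9 and 55.9 CPM in KO replicates 8, 9, 17 and 24 and reached 74.1 CPM in Het. Acinar markers ranged over all 8 libraries from 10300 CPM in Het replicate 7 to 46102 CPM in KO replicate 9. Transcripts of Y-linked genes were present in KO replicates 8, 9 and 24 and in Het replicate 7 (413 to 494 CPM summed) and near 0 in the other 4 libraries (0.309 to 0.441 CPM). Libraries with and without a Y chromosome were therefore unevenly split between the genotypes. In bulk samples, fewer cells of a type and less RNA per cell cannot be told apart, which applies to every level given here.

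Promoter sequence was found for 69 of the 85 symbols in RefSeq (GRCm38.p6), as 250 bases before to 50 after the start. The palindromic consensus bound by nuclear respiratory factor 1 (NRF1), a regulator of many respiratory chain genes, was searched without mismatches (its letters are the capitals in the Ndufa11 promoter given after this text) and occurred in 5 of the 69 (7.25%) and in 0.977% of 27025 promoters of all genes. The ETS-family sequence CCGGAAG occurred in 15 (21.7%) against 9.12% of all promoters. The E-box CAGATG occurred in 8 (11.6%) against 17.2%, and the E-box CAGCTG in 6 (8.70%) against 16.1%. Both strands were searched, and no motif matches overlapped in these promoters. The promoters of all genes were not matched to the members for base composition. The NRF1 and ETS sequences contain CG and the E-boxes do not, and the part of base composition in these shares was not tested. The 200 bases before the start are shown for the members with the smallest p in complexes I and V, Ndufa1 and Atp5l, and for 4 promoters that hold the NRF1 sequence. Sequences run 5′ to 3′ on the strand of the gene, and capitals mark a match to the NRF1 sequence or, near the 3′ end in Cox6a1, the ETS sequence on the other strand.
Ndufa1, chrX:37191239-37191438, minus strand: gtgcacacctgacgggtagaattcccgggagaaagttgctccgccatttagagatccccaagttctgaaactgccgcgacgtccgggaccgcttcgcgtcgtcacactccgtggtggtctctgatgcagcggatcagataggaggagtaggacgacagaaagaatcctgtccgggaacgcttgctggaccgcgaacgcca
Atp5l, chr9:44920743-44920942, minus strand: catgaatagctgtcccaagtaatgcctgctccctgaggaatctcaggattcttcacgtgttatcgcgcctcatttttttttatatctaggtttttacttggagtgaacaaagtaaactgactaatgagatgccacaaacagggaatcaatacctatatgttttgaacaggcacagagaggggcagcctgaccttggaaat
Cox6a1, chr5:115348959-115349158, minus strand: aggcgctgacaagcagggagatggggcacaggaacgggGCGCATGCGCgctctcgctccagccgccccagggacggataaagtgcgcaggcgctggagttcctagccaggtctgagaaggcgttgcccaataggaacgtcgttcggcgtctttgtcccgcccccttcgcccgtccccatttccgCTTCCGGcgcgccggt
Ndufa11, chr17:56717562-56717761, plus strand: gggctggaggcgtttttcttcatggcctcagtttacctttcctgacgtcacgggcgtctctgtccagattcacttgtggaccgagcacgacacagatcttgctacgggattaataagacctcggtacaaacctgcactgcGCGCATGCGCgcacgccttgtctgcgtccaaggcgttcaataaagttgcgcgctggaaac
Atp5k, chr5:108434400-108434599, minus strand: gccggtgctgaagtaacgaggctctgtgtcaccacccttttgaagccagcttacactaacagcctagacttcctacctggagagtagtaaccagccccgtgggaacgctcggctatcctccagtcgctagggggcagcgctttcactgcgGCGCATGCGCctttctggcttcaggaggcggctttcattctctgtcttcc
Atp5g2, chr15:102671048-102671247, minus strand: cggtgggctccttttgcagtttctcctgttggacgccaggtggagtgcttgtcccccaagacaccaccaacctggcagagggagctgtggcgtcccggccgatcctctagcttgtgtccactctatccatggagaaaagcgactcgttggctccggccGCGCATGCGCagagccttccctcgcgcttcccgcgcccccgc
The NRF1 sequence began 162 bases before the start in Cox6a1, 60 in Ndufa11, 50 in Atp5k and 42 in Atp5g2. The other promoter that held it was that of Uqcrc1, where it lay after the start. None of the 4 sequences searched occurred in the stretches printed for Ndufa1 and Atp5l. The full Atp5l promoter did hold 2 ETS matches outside that stretch, at 212 bases before the start and after the start. In the full Ndufa1 promoter there was no match. A match describes letters only, and these data hold no measurement of factor binding.

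The estimated differences of respiratory chain transcripts between the genotypes were mostly small, and no single member passed the test. Of the 78 members, 0 were lower and 0 were higher in KO at an adjusted p under 0.05 (edgeR quasi-likelihood test, Benjamini-Hochberg over 14116 genes), where 1.02% of all tested genes were called (0.68% lower and 0.34% higher). The smallest adjusted p was 0.126, for Ndufa1. At an unadjusted p under 0.05, 8 members were lower (Ndufa1, Ndufb6, Ndufa4, Ndufs8, Ndufb9, Uqcrc2, Atp5l and Atp5j) and 0 were higher, against 5.8% and 6.35% of all tested genes. DESeq2 called 1 member, Ndufa1 (adjusted p = 0.0229), where it called 2.08% of all tested genes lower, and limma-voom with sample quality weights called 0, where it called 2.15% of all tested genes lower. Without KO replicate 8, edgeR called 0 members and 1.31% of all tested genes lower.

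The estimates nevertheless leaned to one side. The log2 fold change of KO over Het was negative for 68 of 78 members (87.2%), against 46.6% of all tested genes, and its median was -0.20 against 0.03 for all tested genes. A median of -0.20 is a KO level 0.87 times that of Het. Every KO library lay below every Het library for 7 members (Ndufa1, Ndufb6, Ndufb11, Uqcrc2, Uqcrb, Atp5l and Atp5j), where 4.51% of all tested genes did so, and above for 0, where 3.52% did. This side of the comparison was that of the summed endocrine markers given above, whose part in it was not tested. Without Het replicate 6 the median was -0.10 and 58 members were negative. Without KO replicate 8, 65 members were negative, against 50.6% of all tested genes.

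**Figure D1:**
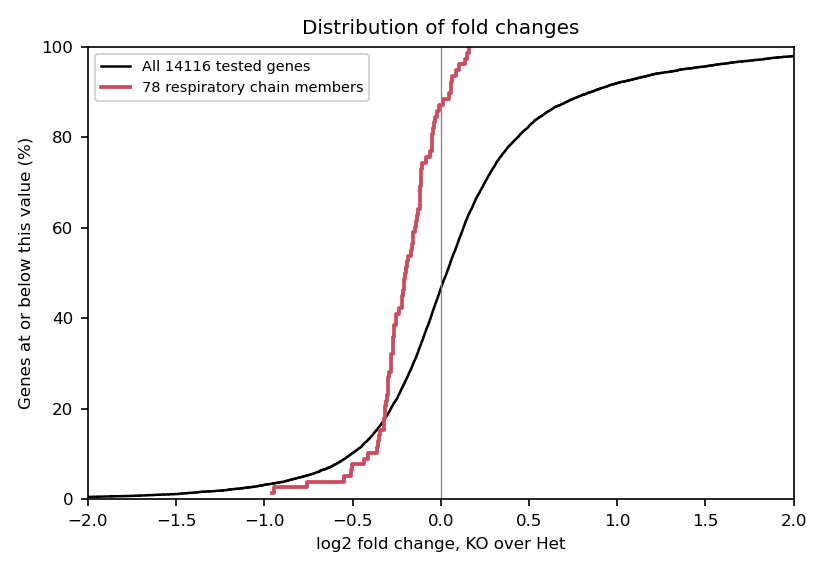
Cumulative share of genes (vertical axis, percent) at or below a log2 fold change of KO over Het (horizontal axis) for the 78 members and all 14116 tested genes. The members' curve crosses 0 at 87.2% and that of all genes at 46.6%, and the members span a narrower range.

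The 95% interval of the log2 fold change lay inside a 2-fold change either way for 68 of 78 members and inside a 1.5-fold change for 33. It reached a 2-fold lower level for 9 members and a 2-fold higher level for 2, Cox7a1 and Atp5g2, which were both near 5 CPM or below. The median SE was 0.19 for members and 0.29 for all tested genes.

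**Figure D2:**
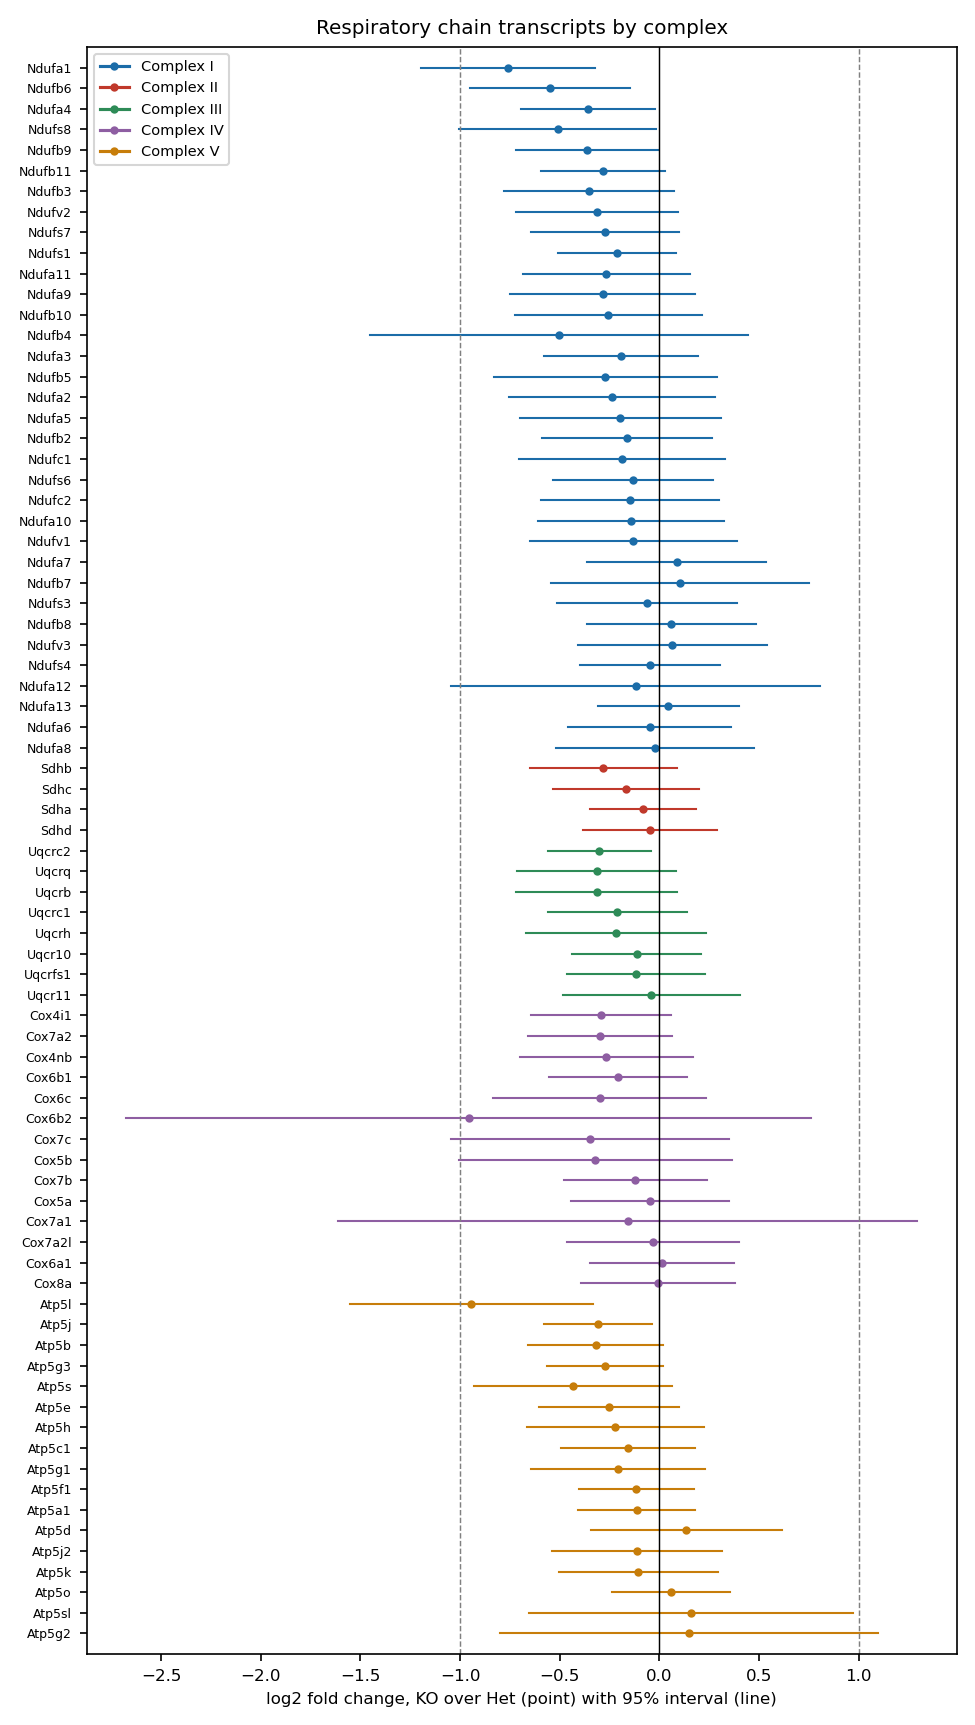
Log2 fold change of KO over Het (points) with its 95% interval (lines) for 77 members, grouped by complex, with dashed lines at a 2-fold change. Points lie mostly left of 0, from -0.96 (Cox6b2) to 0.16 (Atp5sl), and 8 intervals lie wholly below 0.

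Complex I, the NADH dehydrogenase, held the member with the smallest p, and 30 of its 35 symbols had a negative log2 fold change (median -0.20). Ndufa1, a small X-linked accessory subunit in the membrane arm, stood at 43.0, 34.7, 40.9 and 41.1 CPM in KO replicates 8, 9, 17 and 24 and at 76.996, 86.5, 57.1 and 50.2 CPM in Het replicates 6, 7, 13 and 19. The KO libraries lay close together, all below the lowest Het library, while the Het libraries spread widely. The means were 39.9 ± 3.60 CPM in KO and 67.7 ± 16.9 CPM in Het (SD, n = 4 each), and the log2 fold change was -0.76 (SE 0.20, 95% interval -1.20 to -0.33, adjusted p = 0.126). With a covariate for mesenchyme markers its adjusted p was 0.0240, and with 1 for Y-linked genes it was 0.190. Those fits called 3.78% and 0.198% of all tested genes. Among the libraries with Y-linked transcripts, Ndufa1 stood at 43.0, 34.7 and 41.1 CPM in KO and 86.5 CPM in the single Het library. Among those without, it stood at 40.9 CPM in the single KO library and 76.996, 57.1 and 50.2 CPM in Het, so KO was lower in both sets. Within each set 1 genotype had a single library, and no test was made.

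Ndufb6, another accessory subunit of the membrane arm, stood at 30.0, 30.0, 27.2 and 26.03 CPM in KO and 43.6, 50.7, 39.3 and 32.2 CPM in Het, in the same order of replicates. The groups did not overlap, though Het replicate 19 was close to the KO range. KO over Het gave -0.55 on the log2 scale (SE 0.18, adjusted p = 0.239). Ndufb11, which like Ndufa1 is X-linked, also had all KO libraries (72.8 to 100 CPM) below all Het libraries (103 to 121 CPM), with -0.28 as the log2 fold change (SE 0.14, adjusted p = 0.450). The 27 accessory subunits as a group had a median of -0.19, with 22 negative values. The highest value in complex I was that of Ndufb7, at 0.10 (SE 0.29, adjusted p = 0.925). Its KO libraries ranged from 16.8 to 39.4 CPM, on both sides of the Het libraries at 21.7 to 31.5 CPM.

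The core subunits of complex I carry its flavin, its iron-sulfur clusters and the electron path to ubiquinone. Ndufs8, which binds iron-sulfur clusters on the path to ubiquinone, stood at 24.8, 23.5, 42.5 and 25.7 CPM in KO and 48.5, 41.6, 40.6 and 35.4 CPM in Het. KO replicate 17 lay among the Het libraries and the other KO libraries lay below them. In log2 terms the difference was -0.51 (SE 0.22, adjusted p = 0.395). Among other core subunits, Ndufv2 stood at -0.31 and Ndufs7 at -0.27, followed by Ndufs1 at -0.21, Ndufv1 at -0.13 and Ndufs3 at -0.06 (log2 fold changes, adjusted p from 0.525 to 0.934). Ndufv1, Ndufv2 and Ndufs1 form the arm that takes electrons from NADH, and their KO and Het ranges overlapped. Ndufa4, which carries a complex I symbol but is now known as a protein of complex IV, had KO libraries at 101 to 118 CPM and Het libraries at 109 to 164 CPM (-0.36 on the log2 scale, SE 0.15, adjusted p = 0.381).

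Complex II, succinate dehydrogenase, which also belongs to the citrate cycle, had a median of -0.13 over its 4 subunits, which ran from -0.18 without Het replicate 19 to -0.02 without Het replicate 6. Sdha, the flavoprotein that oxidises succinate, stood at 231, 221, 257 and 223 CPM in KO and 272, 235, 255 and 225 CPM in Het. The groups overlapped over most of their range, and the log2 fold change was -0.08 (SE 0.12, 95% interval -0.35 to 0.18, adjusted p = 0.831). Sdhb, the iron-sulfur subunit, had KO libraries at 33.6 to 45.3 CPM and Het libraries at 41.3 to 55.0 CPM (-0.28 on the log2 scale, SE 0.17, adjusted p = 0.532). The membrane anchors Sdhc and Sdhd had log2 fold changes of -0.17 (SE 0.17) and -0.05 (SE 0.15), and their groups overlapped too. All 4 subunits are encoded in the nucleus, so this complex is measured here in full.

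Complex III, the cytochrome c reductase, had 8 negative values of 8, with a median of -0.21. Uqcrc2, a core protein of its matrix side, stood at 134, 146, 141 and 137 CPM in KO and 180, 186, 152 and 170 CPM in Het. All KO libraries were lower, and both groups were tight. The log2 fold change was -0.30 (SE 0.12, 95% interval -0.56 to -0.04, adjusted p = 0.332), and the transcript overlaps Pdzd9, whose own count was at most 28. Uqcrb, a small subunit near the ubiquinone site, also had all KO libraries (19.7 to 21.4 CPM) below all Het libraries (22.8 to 29.4 CPM), with -0.31 as the log2 fold change (SE 0.18, adjusted p = 0.522). The other core protein, Uqcrc1, had a log2 fold change of -0.21 and the Rieske iron-sulfur protein Uqcrfs1 of -0.12, with overlapping groups. Uqcrq, a further small subunit, stood at -0.32 (SE 0.18, adjusted p = 0.515) and Uqcr11 at -0.04 (SE 0.20, adjusted p = 0.960), the lowest and highest of the complex.

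Complex IV, cytochrome c oxidase, had 13 negative values of 14 and a median of -0.24, with no member below an adjusted p of 0.491. Cox4i1, the ubiquitous form of a regulatory subunit that binds adenine nucleotides, stood at 187, 142, 198 and 195 CPM in KO and 273, 219, 192 and 201 CPM in Het. Het replicates 6 and 7 were above all KO libraries, and Het replicates 13 and 19 were at the upper KO values. KO minus Het came to -0.29 on the log2 scale (SE 0.16, adjusted p = 0.491). Cox7a2, the widely expressed form of another subunit, had -0.30 as its log2 fold change (SE 0.16, adjusted p = 0.492). Cox5a and Cox5b, structural subunits of the matrix side, stood at -0.05 (SE 0.18) and -0.32 (SE 0.31), and Cox6a1 had the highest log2 fold change of the complex at 0.01 (SE 0.16).

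The lowest estimate among all members was that of Cox6b2, a form of Cox6b best known from testis. It stood at 6.38, 0.956, 2.56 and 1.17 CPM in KO and 13.2, 2.22, 2.56 and 3.65 CPM in Het. Het replicate 6 held the highest value and KO replicate 8 the next, and the groups overlapped. The log2 fold change of -0.96 had an SE of 0.78 (adjusted p = 0.661), the largest SE of any member. Without Het replicate 6 the estimate was -0.01 and without KO replicate 8 it was -1.79, so the rank rests on single libraries. The symbols in this group include Cox4nb, an older name of Emc8, which encodes a subunit of the endoplasmic reticulum membrane protein complex and no part of cytochrome c oxidase. It stood at -0.27 on the log2 scale (SE 0.20, adjusted p = 0.622).

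Complex V, the ATP synthase, had 13 negative values of 17 and a median of -0.16. Of these symbols, 2 do not encode subunits: Atp5s, at -0.43 on the log2 scale (SE 0.22), and Atp5sl. The catalytic subunit Atp5b had the highest level per transcript length of all members. It stood at 2139, 1826, 1618 and 1588 CPM in KO and 2544, 2285, 1952 and 2179 CPM in Het. KO replicate 8 alone among KO libraries lay above the lowest Het library. The means were 1793 ± 254 and 2240 ± 245 CPM (SD, n = 4 each), and the log2 difference was -0.32 (SE 0.15, 95% interval -0.66 to 0.02, adjusted p = 0.434). Its partner in the catalytic head, Atp5a1, ranged from 631 to 798 CPM in KO and 681 to 856 CPM in Het (log2 fold change -0.11, SE 0.13, adjusted p = 0.778). Atp5c1, the central stalk subunit that turns inside the head, stood at -0.16 (SE 0.15, adjusted p = 0.719).

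Atp5l, subunit g of the membrane part, stood at 9.86, 8.60, 12.1 and 9.96 CPM in KO and 25.5, 21.9, 12.9 and 17.6 CPM in Het. All KO libraries were lower, KO replicate 17 and Het replicate 13 being close. The log2 fold change was -0.94 (SE 0.28, 95% interval -1.55 to -0.33, adjusted p = 0.177, edgeR), and DESeq2 gave an adjusted p of 0.0501. Of the 100-base windows of this transcript, 69.0% also occur in transcripts of 6 other genes, none of them listed under those symbols in the count tables, so its reads may have been split or dropped when they were assigned. Atp5j, of the peripheral stalk that holds the head still, has only 3.52% of windows shared. It stood at 83.7, 97.6, 96.8 and 84.9 CPM in KO and 120, 108, 112 and 109 CPM in Het, with every KO library lower and -0.31 as the log2 fold change (SE 0.12, adjusted p = 0.345). The highest value of any member was 0.16 (SE 0.37, adjusted p = 0.905), for Atp5sl, which in spite of its symbol encodes an assembly factor of complex I now named Dmac2.

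**Figure D3:**
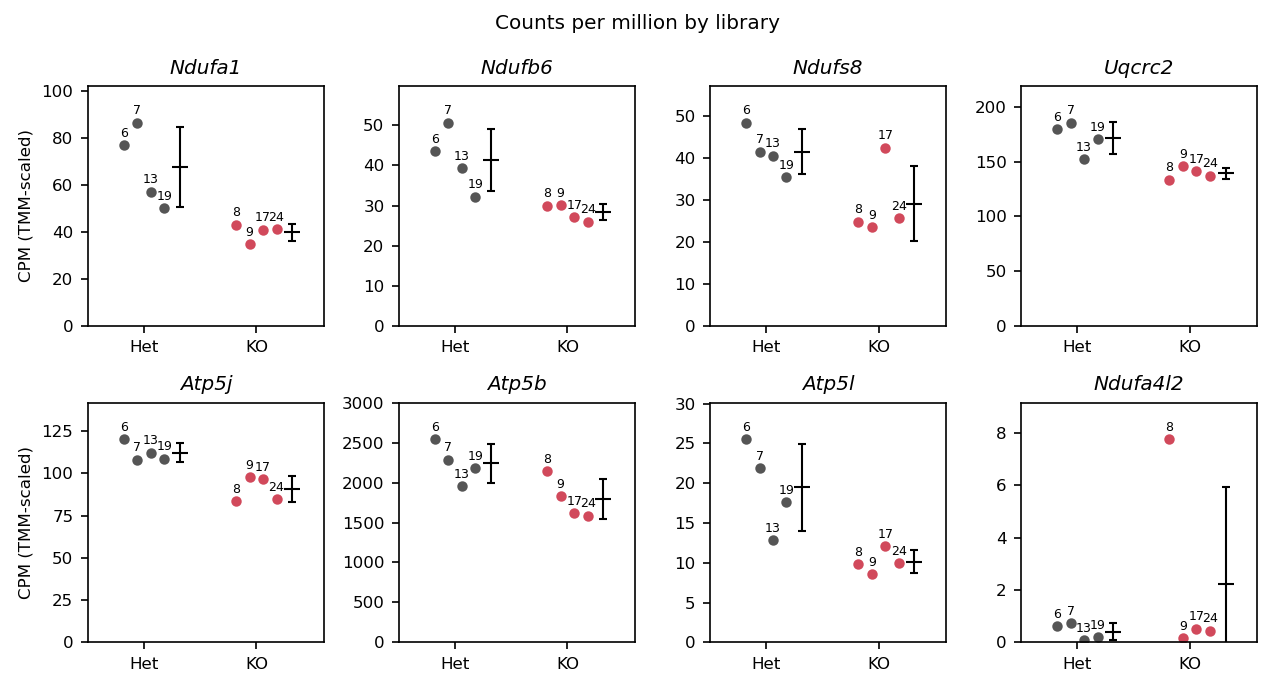
TMM-scaled CPM (vertical axes, from 0) of 8 members in each Het (grey) and KO (red) library, labelled by replicate number, with the mean and SD of 4 libraries beside the points (the lower KO bar of Ndufa4l2 is clipped at 0). KO points lie below all Het points for Ndufa1, Ndufb6, Uqcrc2, Atp5j and Atp5l, while KO replicate 8 lies among or above the Het points for Atp5b and Ndufa4l2.

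The members shared a pattern over the libraries that crossed the genotypes. For each member the log2 level in a library was set against that member's own mean, and the median deviation was taken over the 78 members. It was -0.11, -0.22, 0.01 and -0.07 in KO replicates 8, 9, 17 and 24, and 0.32, 0.15, -0.05 and -0.03 in Het replicates 6, 7, 13 and 19. Het replicates 6 and 7 were high, KO replicate 9 was low, and KO replicate 17 lay above Het replicates 13 and 19, so the groups overlapped. All 5 complexes shared the pattern in the extreme libraries: their medians were 0.26 to 0.34 in Het replicate 6 and -0.25 to -0.16 in KO replicate 9. Over all tested genes the same median ran from 0.00 to 0.02, a value that the TMM scaling of libraries itself keeps near 0. Over tested genes at 10 CPM or more it ran from -0.02 in KO replicate 8 to 0.04 in Het replicate 6.

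Het replicate 6 held the highest level for 46 of 78 members and Het replicate 7 for 16. The lowest level fell in KO replicate 9 for 25 members and in KO replicate 8 for 22. Het libraries still held the lowest level for 17 members and KO libraries the highest for 10. Among libraries with Y-linked transcripts the median deviation was -0.11, -0.22 and -0.07 in KO and 0.15 in Het. Among those without, it was 0.01 in KO and 0.32, -0.05 and -0.03 in Het. In the latter set the KO library lay above 2 of the 3 Het libraries, so the order of the genotypes did not hold within both sets. With a covariate for Y-linked genes the median over members was -0.20 and 62 were negative.

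**Figure D4:**
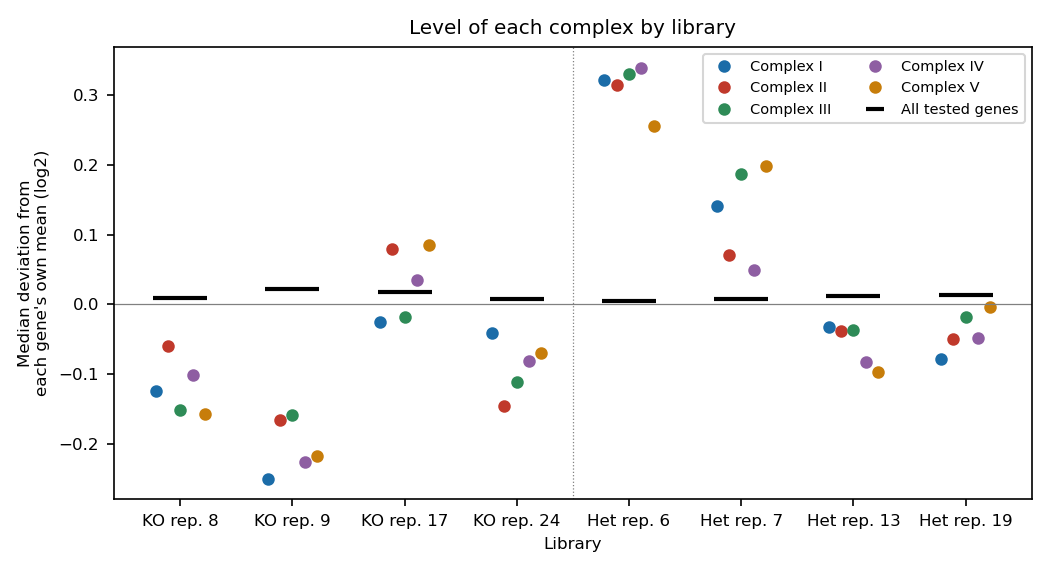
Median deviation of each complex (coloured points) from each gene's own mean over the 8 libraries (vertical axis, log2), with the same median over all tested genes as black bars. All complexes are high in Het replicate 6 (0.26 to 0.34) and low in KO replicate 9 (-0.25 to -0.16), while Het replicates 13 and 19 lie beside KO replicates 17 and 24.

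The share of all counts that fell on the 85 symbols was high in the same libraries. It was 0.860%, 0.748%, 0.826% and 0.768% in KO and 1.02%, 0.949%, 0.810% and 0.794% in Het. Het replicates 6 and 7 again stood above all KO libraries and Het replicates 13 and 19 did not. The means were 0.800% ± 0.0515 in KO and 0.892% ± 0.108 in Het (SD, n = 4 each).

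Per length, these transcripts were among the more abundant of the cells. The median member had 68.5 CPM per kb of transcript, against 8.57 over 13380 tested genes with a length, and 72 of 78 members lay above that all-gene median. By complex, the median level was 116 CPM per kb in complex IV, 93.8 in complex V, 73.0 in complex III, 63.6 in complex I and 60.3 in complex II. Atp5b was highest at 1052 CPM per kb, followed by the c-ring gene Atp5g3 at 307 and Atp5a1 at 304. Lengths came from 1 transcript per gene of another genome build and ignore transcript ends in use, so small differences in level between genes are not read here.

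Some members are hard to count, and these are not only the low ones. Of the 85 symbols, 30 share at least 1 window of 100 bases with a transcript of another gene. The share was, for instance, 86.4% for Atp5g2, 44.4% for Cox7c, 33.4% for Ndufb4 and 28.2% for Ndufb6. For the 49 described members with no shared window, 44 had a negative log2 fold change and the median was -0.19, close to that of all 78.

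**Figure D5:**
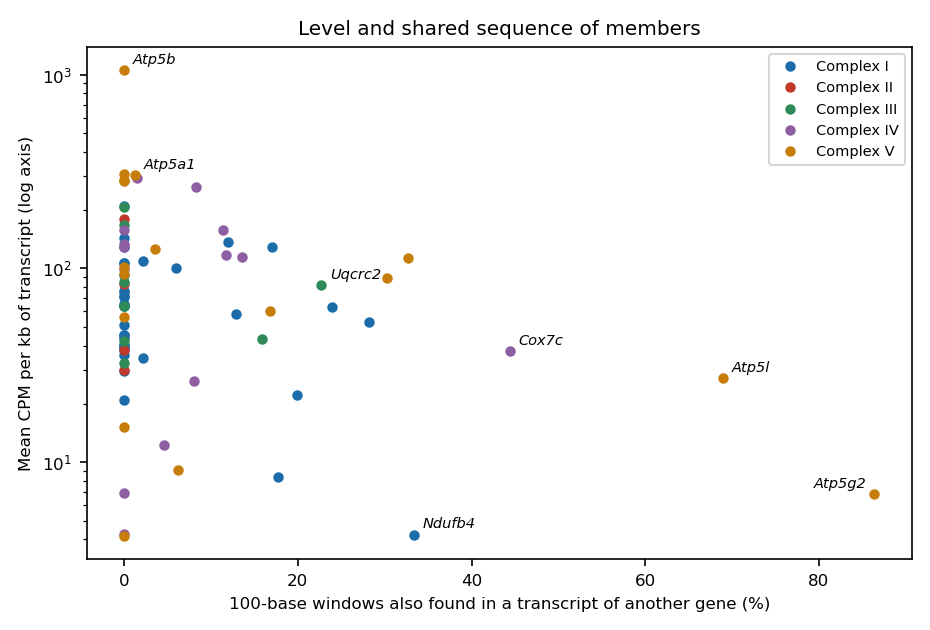
Mean level of each member per kb of transcript (vertical log axis) against the percentage of its 100-base windows found in transcripts of other genes (horizontal axis), coloured by complex. Atp5b is highest at 1052 CPM per kb with no shared window, and Atp5g2 (86.4%) and Atp5l (69.0%) share most of their sequence.

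Of members that exist in tissue forms, the widespread form was the more abundant: Cox6b1 had 133 CPM per kb against 6.98 for Cox6b2, and Cox7a2 had 158 against 4.28 for Cox7a1. The ratios that follow are of CPM, not scaled to length. The log2 ratio of Cox6b2 to Cox6b1 averaged -5.06 ± 1.10 in KO and -4.36 ± 0.96 in Het, and that of Cox7a1, the heart and muscle form, to Cox7a2 averaged -5.97 ± 0.98 and -5.92 ± 0.42 (SD, n = 4 each). The ATP synthase c-ring subunit is encoded by Atp5g1, Atp5g2 and Atp5g3, which give the same mature protein. The log2 ratio of Atp5g1 to Atp5g3 was -2.34 ± 0.27 in KO and -2.40 ± 0.40 in Het, and that of Atp5g2 to Atp5g3 was -5.26 ± 0.39 and -5.68 ± 0.46. The largest differences of KO minus Het were -0.70 for Cox6b2 to Cox6b1 (exact permutation test, two-sided, p = 0.371, adjusted over the 4 pairs 0.743, and from -1.22 without KO replicate 8 to -0.23 without Het replicate 6) and 0.42 for Atp5g2 to Atp5g3 (exact permutation p = 0.229, adjusted 0.743). With 4 libraries against 4 the smallest p possible is 0.0286, which adjustment over 4 pairs puts above 0.05 for any single ratio, so no ratio could pass on its own. The ratio of Atp5g2 rests on few reads that could be told from its copies.

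The 7 symbols below the level were mostly tissue forms: Cox4i2 of lung, Cox6a2 and Cox8b of heart and muscle, Cox7b2 and Cox8c of testis, Ndufa4l2, which hypoxia induces and pericytes express, and Ndufs5. Ndufa4l2 stood at 7.76 CPM (107 reads) in KO replicate 8 and between 0.0882 and 0.741 CPM in the other 7 libraries. KO replicate 8 is also the library in which the mesenchyme markers were highest, and the part of those cells in this value was not tested. Cox6a2 stood at 5.12 CPM in Het replicate 13, 1.11 CPM in Het replicate 19 and at most 0.359 CPM elsewhere, with muscle markers between 1.11 and 7.62 CPM summed over the libraries. Cox4i2, Cox7b2, Cox8b and Cox8c never passed 0.508 CPM, which was Cox8c in KO replicate 8.

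Ndufs5, an iron-sulfur protein fraction subunit of complex I, had 0 counts in all 8 libraries, against a limit of 3 counts, or 0.187 to 0.290 CPM by library. A near copy of it, BC002163, shares 115 windows with it, 27.0% of the windows of Ndufs5, and held 245 to 424 counts per library. BC002163 averaged 24.02 ± 4.19 CPM in KO and 26.8 ± 0.46 CPM in Het (SD, n = 4 each). Most windows of Ndufs5 are not shared with it, and why the symbol stood at 0 was not tested.

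The lists around the chain held 151 symbols, 26 of them for mitochondrial DNA-encoded subunits, which had no row in the counts. Some genes were listed under several names. Tested were 99 genes, for further chain proteins, assembly, regulation, fuel supply and defence against reactive oxygen. Of these 99, 0 were called in either direction by edgeR, which called 1.02% of all tested genes. At an unadjusted p under 0.05, 9 were lower and 3 higher, against 5.8% and 6.35% of all tested genes. Every KO library lay below every Het library for 10 of the 99 and above for 2, against 4.51% and 3.52% of all tested genes. DESeq2 also called 0 of them, where it called 3.69% of all tested genes, and limma-voom with sample quality weights called 1, Ucp2, where it called 3.54%. Of 10 tested complex I assembly factors, 8 had a negative log2 fold change (median -0.25), and of 21 assembly factors of the other complexes 14 did (median -0.08). Lrpprc, which stabilises mitochondrial messenger RNAs, stood at 174, 185, 148 and 191 CPM in KO and 262, 278, 223 and 210 CPM in Het. All KO libraries were below all Het libraries, and the log2 fold change was -0.48 (SE 0.14, adjusted p = 0.183). Tmem186, a complex I assembly factor, was also lower in every KO library, at 10.8 to 14.1 CPM against 14.3 to 25.2 CPM (-0.54 on the log2 scale, SE 0.26, adjusted p = 0.435). Lrpprc, Tmem186, Slc25a5, Pdhx and Cat were named for the smallest p of their lists, a choice that favours groups that do not overlap.

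Of the 17 regulators of mitochondrial biogenesis 7 had negative values (41.2%, near the 46.6% of all tested genes), and their median was 0.23. Nrf1, whose binding sequence is shown above, stood at 49.1, 78.8, 73.7 and 61.2 CPM in KO and 41.0, 46.9, 58.0 and 48.6 CPM in Het. Only KO replicate 8 lay within the Het range, and the log2 fold change was 0.44 (SE 0.19, adjusted p = 0.386). In Het replicate 6, where the members were highest, the median deviation of this list was -0.15.

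Of 19 citrate cycle and pyruvate dehydrogenase genes, 15 had negative values (median -0.17), and of 16 inner membrane carriers and reductases 12 did (median -0.16). Slc25a5, an ADP/ATP carrier that exports the ATP made by complex V, stood at 173, 211, 219 and 222 CPM in KO and 283, 286, 254 and 280 CPM in Het. The groups did not overlap (log2 fold change -0.42, SE 0.12, adjusted p = 0.183). Pdhx, a structural protein of the pyruvate dehydrogenase complex, had KO libraries at 20.2 to 25.8 CPM and Het libraries at 26.5 to 32.5 CPM (-0.45 on the log2 scale, SE 0.18, adjusted p = 0.338). Ucp2, an inner membrane carrier known as an uncoupling protein and expressed in beta cells, was picked after its values were seen. It stood at 147, 251, 281 and 269 CPM in KO and 141, 143, 163 and 204 CPM in Het. KO replicate 8 lay within the Het range and the other KO libraries lay above it. With all 8 libraries the estimate was 0.54 on the log2 scale (SE 0.21, adjusted p = 0.338). Without KO replicate 8 it was 0.70 (SE 0.15, adjusted p = 0.0344), with the mesenchyme covariate 0.68 (SE 0.10, adjusted p = 0.00372) and with limma-voom 0.64 (SE 0.15, adjusted p = 0.0293). In the same order, those settings called 1.99%, 3.78% and 3.54% of all tested genes. No other alternative run, DESeq2 among them, called Ucp2. Of 6 further subunits and chain proteins outside the symbol rule all 6 had negative values, with a median of -0.07, among them Cyc1, cytochrome c1 of complex III, at -0.26 (SE 0.13, adjusted p = 0.467).

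Of 10 genes of defence against reactive oxygen, which the chain produces as a by-product, 6 had negative values. Sod1, the cytosolic superoxide dismutase, was called lower only with the mesenchyme covariate (-0.53 on the log2 scale, SE 0.12, adjusted p = 0.0289). Cat, the peroxisomal catalase, was higher in every KO library, at 139, 141, 94.0 and 83.4 CPM against 69.8, 80.9, 69.96 and 73.5 CPM in Het. KO replicates 8 and 9 stood well above the Het range and KO replicates 17 and 24 just above it. On the log2 scale this was a difference of 0.64 (SE 0.19, adjusted p = 0.183). KO replicates 8 and 9 were also the libraries with the highest summed leukocyte markers (493 and 275 CPM). The part of those cells in the Cat values was not tested.

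In the authors' deposited table of the same comparison, 0 of the 78 members had an adjusted p under 0.05, where 184 of 18760 genes did. The smallest adjusted p of a member in the authors' deposited table was 0.120, for Ndufa1, and 68 members had a negative log2 fold change there, with a median of -0.20.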

How the data were processed

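RNA of sorted cells (2.315 ng per library) was amplified with the NuGEN Ovation V2 system, and about 30 M single-end reads of 100 bases were made per library, per the labels' protocols. The authors deposited whole-number counts per gene symbol, 1 table per library. The submitters' processing notes name bcl2fastq 1.8.4, TopHat2 2.1.0, Cufflinks 2.0.2, DESeq and mm9. For the counting tool, its strand setting and the annotation, nothing is given in the sources used here. A comparison table that the authors deposited holds means of normalized counts (signal), fold changes as a ratio, log2 fold changes and p-values. Libraries were mapped to genotypes by the sample labels, and 0 columns were left unmatched.

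Counts were tested here with edgeR 4.0.16 in R 4.3.3: filterByExpr (minimum count 10), TMM scaling, the quasi-likelihood F test, two-sided, and Benjamini-Hochberg adjustment over 14116 genes, with calls at an adjusted p under 0.05. Printed CPM values use TMM-scaled library sizes, and the threshold of 1 CPM uses library totals. Log2 levels by library and isoform ratios used a prior count of 2. DESeq2 1.42.0 and limma 3.58.1 (voom with sample quality weights) gave alternatives, beside other scalings and filters, covariates for mesenchyme markers and Y-linked genes, and each library left out in turn. Transcript lengths and shared windows came from GENCODE M21, matched by symbol for 85 of 85 members, and promoters from RefSeq. Both are on a build other than mm9 and were used for sequence and length only. Named were Neurod1, the 3 members of each complex with the smallest p and those with the extreme fold changes, all of complex II, the core subunits, isoform pairs, members below the level and the leading gene of each pathway list. Ndufb9, Ndufb11, Atp5s, Ucp2, Sod1, BC002163 and the promoters were picked outside this rule, after values were seen. Values of 1 of the 78 members are not reported here, though it is included in the counts and medians. Members and lists were chosen with earlier results of these data known. The amplified reads carry no molecular identifiers, so the limit of 3 counts covers counting error only.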

Additional observations from a re-analysis of the deposited data

Results flagged for a closer look

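In 114 groups of 4 libraries checked, 10 had 1 library far from the other 3. Chance flags about 1 in 20 groups, but in 3 of the 10 (Cox8b in each genotype and Cox8c) the other libraries were all at 0, where any read is flagged. KO replicate 8 was high for Ndufa4l2 (7.76 CPM, others 0.159 to 0.527) and Cox8c (0.508 CPM, others at 0), and low for Cox6a1 (130 CPM, others 177 to 185). Het replicate 6 was high for Cox6b2 (13.2 CPM, others 2.22 to 3.65) and Uqcrc1 (70.4 CPM, others 52.4 to 53.6), and had a low log2 ratio of Atp5g2 to Atp5g3 (-6.37, others -5.48 to -5.38). KO replicate 17 was high for Ndufs8 (42.5 CPM, others 23.5 to 25.7). Het replicate 7 had a low log2 ratio of Atp5g1 to Atp5g3 (-3.00, others -2.24 to -2.16). Cox8b had reads only in KO replicate 17 (0.0753 CPM, a single read) and Het replicate 19 (0.203 CPM, 2 reads).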

How the results depend on the processing

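Members called lower numbered 1 with DESeq2 (Ndufa1) and 2 with the mesenchyme covariate, Ndufa1 among them, and 0 under every other alternative run. Of all tested genes, DESeq2 called 3.69% and the fit with the mesenchyme covariate 3.78%, both directions together. Over all genes, calls lower and higher numbered 293 and 228 with DESeq2, 304 and 196 with limma-voom and quality weights, 328 and 205 with the mesenchyme covariate, and 22 and 6 with the Y-linked covariate. With 1 library left out they ranged from 26 to 188 lower and from 3 to 97 higher, the highest without KO replicate 8 (188 and 97) and the lowest without Het replicate 13, with fewer libraries in each fit. Without KO replicate 8 and Het replicate 6 together, chosen after seeing the data, 171 were lower and 113 higher, and 59 members were negative (median -0.13). The members' median stayed negative throughout, from -0.26 to -0.10 with 1 library left out (complex I -0.30 to -0.12, II -0.18 to -0.02, III -0.29 to -0.10, IV -0.32 to -0.09 and V -0.23 to -0.09), at -0.14 with library totals (60 negative) and at -0.10 with limma-voom (55 negative). Differences in log2 ratio changed sign with 1 library left out for Cox7a1 to Cox7a2 (range -0.45 to 0.27, with 0.27 without KO replicate 9, 0.15 without KO replicate 17 and 0.14 without Het replicate 13) and Atp5g1 to Atp5g3 (range -0.13 to 0.18, with -0.01 without KO replicate 9 and -0.13 without Het replicate 7). The cause was not tested. No paired analysis was made, because the labels name no litter or batch by which KO and Het libraries could be paired. Members under about 5 CPM are limited by depth.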
